A study of Mus musculus with 6 samples.

Results

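The B lineage genes described here are 9 genes that define B cells or their precursors: Ighm, Cd79a, Cd79b, Ms4a1, Pax5, Ebf1, Blnk, Igll1 and Vpreb1. They were chosen with earlier results of these data known and were matched by symbol. Each of the 9 matched 1 Ensembl identifier among the 37991 in the count files. The cells were mouse group 2 innate lymphoid cells (ILC2), which make type 2 cytokines and carry no rearranged antigen receptor on their surface. They were sorted as cells without lineage markers that carried Thy1 and ST2, the IL-33 receptor chain encoded by Il1rl1, with about 300000 cells per sample. There were 2 libraries from each of 3 groups: cells from mesenteric lymph nodes (MLN) grown for 1 week in IL-25, IL-33 and IL-7, each at 10 ng/ml (cultured MLN), cells taken straight from the thymus, and cells taken straight from MLN (fresh MLN). Every mouse was homozygous for an Id1 transgene driven by the proximal lck promoter, which is known to act in developing T cells, made on FVB/N and crossed back for 10 or more generations to C57BL/J, so the groups differ in organ and culture and no group lacks the transgene.

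In a B cell the mu heavy chain (Ighm) pairs with a light chain and is carried on the surface by Cd79a and Cd79b, whose tails start the signal that the linker Blnk passes on. Before a light chain exists, pre-B cells use a surrogate made of Igll1 and Vpreb1. Ebf1 and Pax5 are the transcription factors that establish and hold the lineage, and Ms4a1 encodes CD20 on mature B cells. Functional mu messages join a rearranged V segment to Ighm, whereas the unrearranged locus is also known to give germline, or sterile, mu transcripts without a V segment in lymphoid progenitors and T cells. E proteins, among them the product of Tcf3, activate several of these genes through E-box sequences, and Id1 blocks their binding to DNA.

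The E-box form bound by E proteins in B lineage promoters is read here as CAGGTG, or CACCTG on the other strand, which do not overlap each other. It was searched in the RefSeq promoter windows of GRCm38.p6, each 300 bases long with 250 bases before the gene start and 50 after it. Of all 32851 windows, 20.2% held a match. Windows were at hand for 6 of the 9 genes and 4 of these 6 held a match, whereas the Pax5 window and both Ebf1 windows did not; Ighm, Cd79b and Ms4a1 had no entry. The 4 windows with a match are shown, so that its place in each can be seen. They run 5′ to 3′ on the strand of the gene, with the match in capitals, and lie at chr7:24897247-24897546 (plus strand) for Cd79a, chr16:16863936-16864235 (minus strand) for Igll1, chr16:16869206-16869505 (minus strand) for Vpreb1 and chr19:40994172-40994471 (minus strand) for Blnk.
Cd79a: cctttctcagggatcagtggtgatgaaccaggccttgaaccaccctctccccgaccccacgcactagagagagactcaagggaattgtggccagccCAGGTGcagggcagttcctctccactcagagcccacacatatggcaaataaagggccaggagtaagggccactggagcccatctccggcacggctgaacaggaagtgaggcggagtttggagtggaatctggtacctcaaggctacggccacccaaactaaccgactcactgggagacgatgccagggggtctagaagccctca
Igll1: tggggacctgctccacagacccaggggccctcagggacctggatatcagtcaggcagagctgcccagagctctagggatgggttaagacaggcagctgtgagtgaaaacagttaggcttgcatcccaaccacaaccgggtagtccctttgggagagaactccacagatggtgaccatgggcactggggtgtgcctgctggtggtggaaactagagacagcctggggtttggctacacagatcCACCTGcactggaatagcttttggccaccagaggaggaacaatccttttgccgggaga
Vpreb1: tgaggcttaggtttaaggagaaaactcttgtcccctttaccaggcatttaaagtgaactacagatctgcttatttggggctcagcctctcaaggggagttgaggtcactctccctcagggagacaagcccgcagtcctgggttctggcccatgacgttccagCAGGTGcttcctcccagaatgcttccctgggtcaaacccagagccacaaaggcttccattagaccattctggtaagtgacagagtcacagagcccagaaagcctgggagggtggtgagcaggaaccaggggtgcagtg
Blnk: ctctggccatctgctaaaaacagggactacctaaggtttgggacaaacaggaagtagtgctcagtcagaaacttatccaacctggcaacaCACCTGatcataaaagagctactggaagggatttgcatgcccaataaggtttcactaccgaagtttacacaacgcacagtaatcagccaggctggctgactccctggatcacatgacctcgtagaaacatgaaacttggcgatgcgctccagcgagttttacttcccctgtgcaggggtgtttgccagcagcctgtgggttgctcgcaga
Counted from the 5′ end, the match began at base 97 in Cd79a, 243 in Igll1, 163 in Vpreb1 and 91 in Blnk. A match is a stretch of letters only, and these data hold no measure of binding there.

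Library totals ran from 35280692 to 40578264 counts. Levels are CPM, the count of a gene over a scaled library total, with TMM factors, and 3 counts, the limit that a count of 0 allows, equal 0.0739 to 0.0905 CPM in a single library. The sort markers were present in every library: Il1rl1 ran from 1444 to 2342 CPM and Thy1 from 107 to 736 CPM. Id1 had 1.48 and 1.18 CPM in cultured MLN, 422 and 426 CPM in thymus, and 434 and 469 CPM in fresh MLN; these counts do not separate transgene from endogenous transcripts. A gene was called when the adjusted p of edgeR's quasi-likelihood test over 16231 genes was under 0.05. The 3 comparisons share libraries and are not independent of each other.

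Of the 9 genes, Ighm and Cd79b alone had more than 5 CPM in any library, and against fresh MLN they changed in opposite directions. Ighm, which encodes the mu constant region, was 2.83-fold lower in thymus and 2.44-fold lower in cultured MLN than in fresh MLN. Cd79b, the signalling partner that needs Cd79a to reach the surface of a B cell, was 3.50-fold higher in cultured MLN than in fresh MLN. Cd79a, Vpreb1, Ebf1, Pax5, Blnk, Igll1 and Ms4a1 had at most 54 counts in any library. Of the 5 genes with enough counts to be tested, 2 were called between thymus and fresh MLN, where 47.3% of all tested genes were called. The 2 were Cd79b, higher, as were 25.3% of all genes, and Ighm, lower, as were 22% of all genes. Between cultured and fresh MLN 4 were called, against 77.6% of all genes: Cd79b and Ebf1 were higher, against 39.4% of all genes, and Ighm and Vpreb1 lower, against 38.1%. Between cultured MLN and thymus 3 were called, against 72.7% of all genes: Cd79b and Ebf1 were higher, against 34.8%, and Vpreb1 lower, against 37.8%. With so few genes, these shares do not set the B lineage genes apart from all genes. Moreover, Ebf1 was tested only because of its counts in cultured MLN, the group where it was high. Their median log2 fold change was -0.30 for thymus against fresh MLN, -0.59 for cultured against fresh MLN and 0.21 for cultured MLN against thymus, beside medians over all tested genes of 0.00, -0.01 and -0.06. When library totals alone were used for scaling, the median over all genes moved to -0.23 in cultured against fresh MLN and -0.32 in cultured MLN against thymus.

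**Figure D1:**
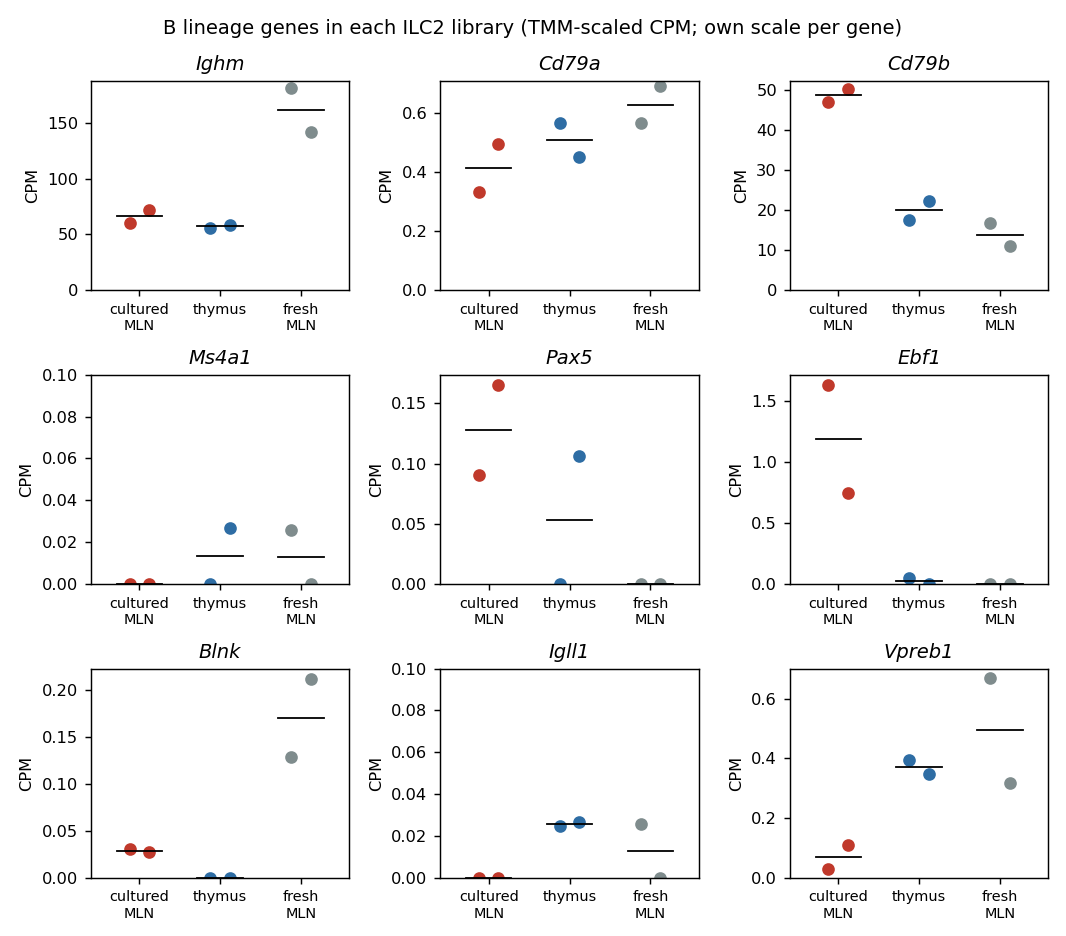
TMM-scaled CPM of the 9 B lineage genes in each library, with 1 panel and 1 linear axis per gene. Points are libraries, with 2 per group, and lines are group means. Ighm lay between 142 and 181 CPM in fresh MLN, above all other libraries, and Cd79b between 47.1 and 50.3 CPM in cultured MLN, whereas Ms4a1 and Igll1 held 0 or 1 count per library.

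Per kilobase of exon, the order of the genes put Ighm first and Cd79b second in each group. In cultured MLN, Ighm had 35.1 CPM per kilobase and Cd79b 34.0, a gap smaller than the spread between the 2 libraries. In thymus, Ighm had 30.3 CPM per kilobase and Cd79b 13.9, and in fresh MLN Ighm had 85.6 and Cd79b 9.71. Cd79a came next at 0.284 CPM per kilobase in cultured MLN, 0.350 in thymus and 0.431 in fresh MLN. The gap between Cd79b and Cd79a, which form 1 heterodimer in B cells, was therefore far larger than the spread between libraries in all 3 groups. Vpreb1 followed Cd79a closely in thymus (0.309) and fresh MLN (0.412), where the ranges of both genes overlapped. The remaining genes stood at or under 0.122 CPM per kilobase.

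**Figure D2:**
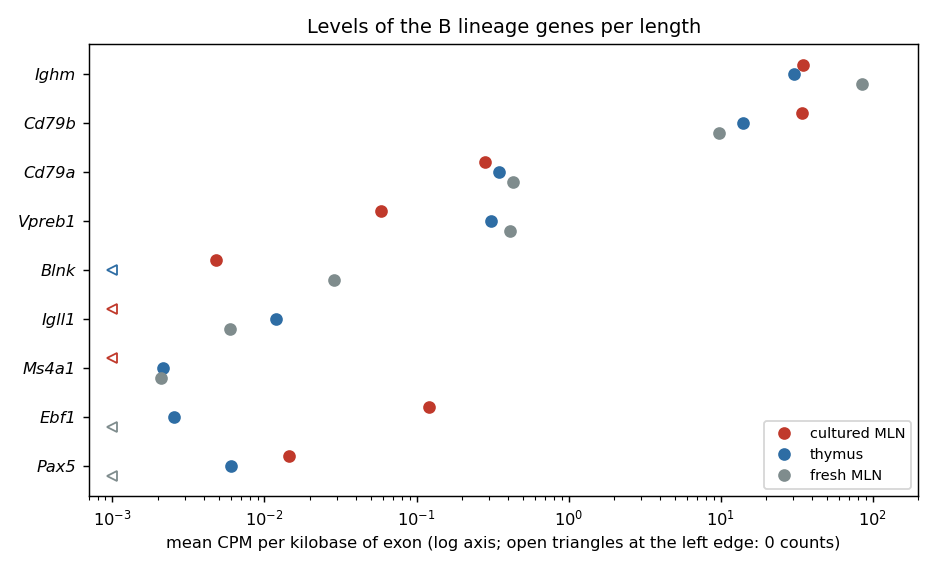
Group means of CPM per kilobase of exon for the 9 genes on a log axis, with open triangles at the left edge for a group with 0 counts. Ighm and Cd79b lay at 9.71 or above in every group, and the other 7 genes lay at 0.431 or below.

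Ighm had 60.5 and 71.7 CPM in cultured MLN, 55.7 and 58.4 CPM in thymus, and 181 and 142 CPM in fresh MLN. Both fresh MLN libraries were high, and neither of the other groups overlapped them. The means were 66.1 ± 7.91 CPM in cultured MLN, 57.1 ± 1.91 CPM in thymus and 161 ± 27.7 CPM in fresh MLN (SD, n = 2 each), and in fresh MLN Ighm ranked 1409 among the 23871 genes with a count. The log2 fold change was -1.50 ± 0.11 (SE) for thymus against fresh MLN, with an adjusted p of 1.53e-07 in edgeR. For cultured against fresh MLN it was -1.29 ± 0.11, with an adjusted p of 1.30e-07 in edgeR. Cultured MLN and thymus differed by a log2 fold change of 0.21 ± 0.11, with an adjusted p of 0.0954 in edgeR, so this difference was not called although the libraries did not overlap. Under 7 of 14 alternative settings it was called (adjusted p 0.0172 to 0.0420), and with library totals alone it was -0.045. In bulk samples such as these, fewer cells of a type and less RNA per cell cannot be told apart. Whether the pair of libraries in each group came from separate animals or cultures is not stated, and the p-values then cover only the spread among the libraries at hand.

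Summed markers of 2 other cell types had, like Ighm, their highest values in fresh MLN, while their lowest values lay in cultured MLN and those of Ighm in thymus. The summed level of 13 macrophage and monocyte markers was 48.5 to 54.0 CPM in cultured MLN, 89.1 to 104 CPM in thymus and 296 to 300 CPM in fresh MLN. That of 10 plasmacytoid dendritic cell markers was 207 to 210 CPM in cultured MLN, 255 to 259 CPM in thymus and 590 to 656 CPM in fresh MLN. The part of such cells in the Ighm level was not tested. The macrophage sum was led by Ctss, a lysosomal protease of antigen-presenting cells, at 30.1 CPM in cultured MLN, 87.4 CPM in thymus and 206 CPM in fresh MLN, and by Cybb, an oxidase subunit of phagocytes, at 0.0715, 0.619 and 69.5 CPM in the same groups. Other macrophage markers went the other way: Cd68, a lysosomal protein, had 16.4 CPM in cultured MLN, 3.94 CPM in thymus and 3.98 CPM in fresh MLN, and Adgre1, which encodes F4/80, had 3.57, 0.234 and 0.262 CPM. The plasmacytoid sum was led by Bst2 and Ccr9, which other lymphocytes also carry. Bst2 had 86.3 CPM in cultured MLN, 84.1 CPM in thymus and 225 CPM in fresh MLN, and Ccr9 had 0.485, 56.2 and 302 CPM. Not all plasmacytoid markers were highest in fresh MLN: Runx2 had 47.8, 44.1 and 26.7 CPM and Irf8 16.3, 2.08 and 6.90 CPM in the same groups.

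Cd79b had 47.1 and 50.3 CPM in cultured MLN, 17.6 and 22.3 CPM in thymus, and 16.7 and 11.1 CPM in fresh MLN. Both cultured libraries stood above all others, and the thymus and fresh MLN libraries lay close to each other without overlapping. The means were 48.7 ± 2.23 CPM in cultured MLN, 19.9 ± 3.35 CPM in thymus and 13.9 ± 3.91 CPM in fresh MLN (SD, n = 2 each). In edgeR the log2 fold change of cultured against fresh MLN was 1.81 ± 0.15, with an adjusted p of 1.49e-07. Against thymus, the cultured cells were 2.45-fold higher, with a log2 fold change of 1.29 ± 0.15 and an adjusted p of 4.13e-06 in edgeR. Thymus was 1.43-fold higher than fresh MLN, with a log2 fold change of 0.52 ± 0.16 and an adjusted p of 0.0159 in edgeR. That call rested on single libraries: without thymus replicate 2 the log2 fold change was 0.34 with an adjusted p of 0.131, and without fresh MLN replicate 2 it was 0.25 with an adjusted p of 0.164, both in edgeR.

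Cd79a, the other signalling chain, had 11 and 18 counts in cultured MLN, 23 and 17 counts in thymus, and 22 and 26 counts in fresh MLN. These equal 0.332 and 0.496 CPM in cultured MLN, 0.567 and 0.452 CPM in thymus, and 0.565 and 0.690 CPM in fresh MLN. All 6 libraries lay within a narrow, low range, and thymus overlapped both other groups. None of its 3 log2 fold changes passed the test in edgeR: they were -0.30 ± 0.40 for thymus against fresh MLN (adjusted p 0.576), -0.59 ± 0.42 for cultured against fresh MLN (adjusted p 0.212) and -0.29 ± 0.43 for cultured MLN against thymus (adjusted p 0.554). For every 100 Ighm counts there were 0.629 Cd79a counts in cultured MLN, 0.897 in thymus and 0.387 in fresh MLN, while Cd79b gave 73.5 in cultured MLN, 34.8 in thymus and 8.61 in fresh MLN. In single libraries the Cd79b value was 77.9 and 70.1 in cultured MLN, 31.5 and 38.2 in thymus, and 9.20 and 7.84 in fresh MLN, so the libraries of different groups did not overlap. The 2 thymus libraries differed from each other by more than counting error, so counting intervals understate the spread between libraries.

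The surrogate light chain genes stood at the limit of these libraries. Vpreb1 had 1 and 4 counts in cultured MLN, 16 and 13 counts in thymus, and 26 and 12 counts in fresh MLN. The cultured libraries were lowest, and the thymus libraries lay within the range of fresh MLN. Vpreb1 was lower in cultured than in fresh MLN, with a log2 fold change of -2.73 ± 0.69 and an adjusted p of 0.00265 in edgeR. It was also lower in cultured MLN than in thymus, with a log2 fold change of -2.31 ± 0.72 and an adjusted p of 0.0108 in edgeR. This call of cultured MLN against thymus was lost without thymus replicate 1 (adjusted p 0.0525) and without cultured MLN replicate 1 (adjusted p 0.107). For thymus against fresh MLN the log2 fold change was -0.41 ± 0.50, with an adjusted p of 0.526 in edgeR. Vpreb1 overlaps Top3b, a topoisomerase gene of general use on the opposite strand, which had 62.1 CPM in cultured MLN, 83.7 CPM in thymus and 113 CPM in fresh MLN and was called lower in all 3 comparisons. The kit marked strand, but the strand setting of the counting is not given in the sources used here, so reads of Top3b may stand among the Vpreb1 counts, and this was not tested. Igll1, the partner of Vpreb1, had 0 counts in both cultured libraries, 1 count in each thymus library, and 1 and 0 counts in fresh MLN, and was not tested.

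Blnk, the linker between the receptor and its downstream enzymes, had 1 count in each cultured library, 0 counts in both thymus libraries, and 5 and 8 counts in fresh MLN. Summed over a group, thymus was 4.42-fold lower than fresh MLN when 3 counts were taken as the limit for thymus. The exact 95% counting interval of the ratio, with 0 counts in thymus, began at 3.11. For cultured against fresh MLN, with 2 counts against 13, the ratio given as fresh over cultured MLN was 5.89, with a 95% counting interval from 1.33 to 53.8. The counts were too low for the test, and with no filter on low counts only the thymus difference was called in edgeR (adjusted p 0.0231). Ms4a1, the CD20 gene, had 0 counts in both cultured libraries, 0 and 1 counts in thymus, and 1 and 0 counts in fresh MLN. The 2 counts of Ms4a1 over all 6 libraries allow no comparison.

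Ebf1 was the one lineage factor with counts beyond a handful, and these lay in the cultured cells. It had 54 and 27 counts in cultured MLN, 2 and 0 counts in thymus, and 0 counts in both fresh MLN libraries. In CPM the cultured libraries had 1.63 and 0.744, a mean of 1.19 ± 0.626 (SD, n = 2), so that both stood above every other library but differed much from each other. Ebf1 was 29.8-fold higher in cultured than in fresh MLN when 3 counts over fresh MLN were taken as the limit. The exact 95% counting interval of the ratio, with 0 counts in fresh MLN, began at 23.7. The adjusted p was 2.86e-05 in edgeR. Ebf1 passed the filter on low counts through the cultured libraries alone, so its calls as higher in culture add little to these counts. Against thymus the ratio was 45.6, with a 95% counting interval from 12.2 to 383 and an adjusted p of 7.43e-05 in edgeR. Thymus against fresh MLN, with 2 counts against 0, was not called. An antisense gene, Gm12158, overlaps Ebf1, so its reads may stand among these counts, which was not tested. The same holds for Pax5, which antisense genes such as Gm12462 overlap. Pax5, which Ebf1 activates in B cell development, had 3 and 6 counts in cultured MLN, 0 and 4 counts in thymus, and 0 counts in both fresh MLN libraries. Summed over the group, cultured MLN was 3.31-fold higher in Pax5 than fresh MLN when 3 counts were taken as the limit for fresh MLN. The exact 95% counting interval of the ratio began at 2.18. Pax5 was too low for the test, and with no filter it was called in edgeR (adjusted p 0.0352). Against thymus the Pax5 ratio was 2.53, with a counting interval from 0.707 to 11.3.

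Whether the mu transcripts carried a V segment cannot be read directly, because counts per gene hold no read positions. What the files give is the counts of the segment and light chain genes beside Ighm. The named heavy chain V segments among the identifiers were 25, against 183 in the later annotation used for names, so their sum is partial, and near-identical segments and reads that span 2 genes are uncertain. Of the 25, 6 had a count. They summed to 6 and 1 counts in cultured MLN, 26 and 24 counts in thymus, and 61 and 44 counts in fresh MLN. For every 100 Ighm counts this was 0.152 in cultured MLN (95% counting interval 0.0611 to 0.313), 1.12 in thymus (0.831 to 1.48) and 0.848 in fresh MLN (0.693 to 1.03). The ratio was lowest in the cultured cells, and the intervals of thymus and fresh MLN overlapped. These intervals reflect counting error alone and leave out the spread between libraries. The reads carry no molecular identifiers and may repeat the same molecule, so the intervals may be too narrow even for counting error.

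Few segments carried these counts. Ighv6-3 had 2 and 0 counts in cultured MLN, 17 and 11 counts in thymus, and 30 and 26 counts in fresh MLN. Ighv6-6 had 0 counts in both cultured libraries, 6 and 7 counts in thymus, and 17 counts in each fresh MLN library. Ighv6-3 and Ighv6-6 were thus lowest in cultured MLN and highest in fresh MLN, as in the sum. Ighv1-47, with 4 and 1 counts in cultured MLN, 3 and 4 counts in thymus, and 2 and 0 counts in fresh MLN, did not follow this order. The 4 heavy chain J segments had counts in fresh MLN alone, 8 and 10, and 0 in the other 4 libraries. The heavy chain constant genes of switched classes, Ighg2b, Ighg2c and Ighg3, likewise summed to 0 counts in cultured MLN and thymus and to 27 and 18 counts in fresh MLN. This sum is partial: of 7 constant genes other than Ighm in the later annotation, 5 had an identifier, and Igha was not among them. Ighd, which B cells splice from the same primary transcript as Ighm, matched no identifier in the count files, so its level is unknown.

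Mature B cells and plasma cells make a light chain beside the heavy chain, and the counts of the light chain constant genes at hand were low. These were Igkc and 1 of 4 lambda constant genes, Iglc2, so the sum is partial for lambda. They summed to 1 count in each cultured library, 8 and 10 counts in thymus, and 23 and 145 counts in fresh MLN. For every 100 Ighm counts this was 0.0434 in cultured MLN (95% counting interval 0.00526 to 0.157), 0.404 in thymus (0.239 to 0.639) and 1.36 in fresh MLN (1.16 to 1.58). Fresh MLN replicate 2 set the last of these values, with 2.71 against 0.326 in replicate 1, which lay within the interval of thymus. Igkc itself had 0 and 1 counts in cultured MLN, 8 and 9 counts in thymus, and 23 and 144 counts in fresh MLN. Igkc was called lower in thymus than in fresh MLN (log2 fold change -3.32 ± 0.75, adjusted p 0.00274 in edgeR), but without fresh MLN replicate 2 the log2 fold change was -1.43 with an adjusted p of 0.115, and the call was lost. In fresh MLN the 2 libraries also held different V segments. Iglv1 had 46 counts in replicate 1 and 2 in replicate 2, whereas the 53 kappa V segments at hand, of 160 named in the later annotation, summed to 3 counts in replicate 1 and 22 in replicate 2. The Ighm level was the higher in replicate 1, the library with fewer Igkc counts.

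**Figure D3:**
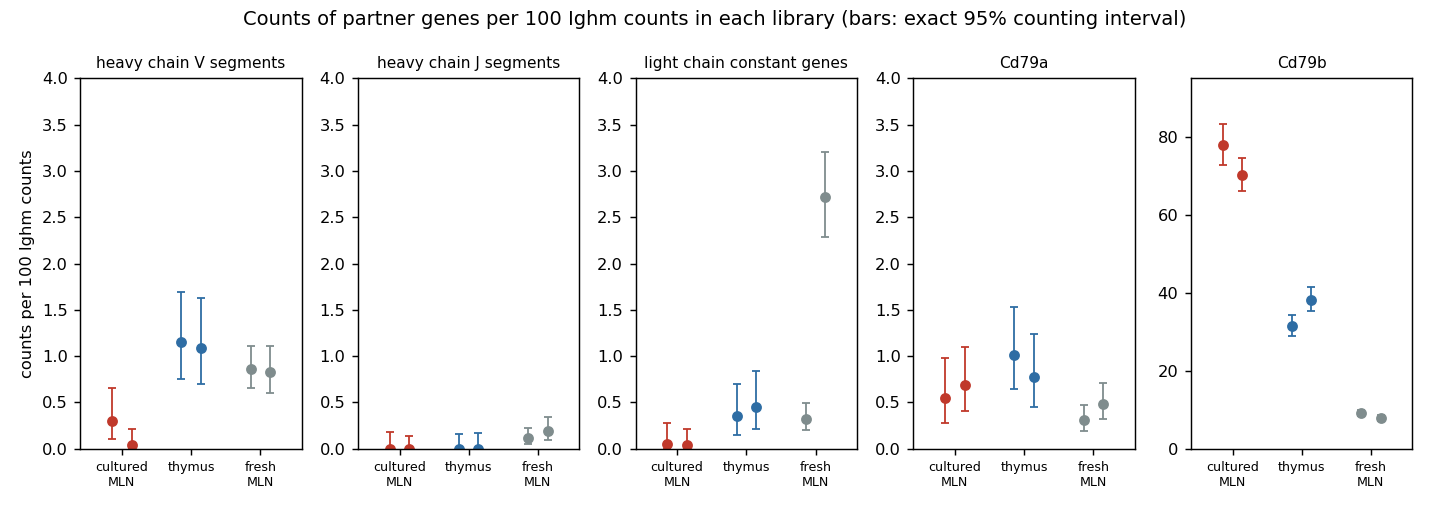
Counts of heavy chain V segments, heavy chain J segments, light chain constant genes, Cd79a and Cd79b for every 100 Ighm counts in each library, with bars for exact 95% counting intervals. The Cd79b panel has its own axis. Light chain constant genes gave 2.71 in fresh MLN replicate 2 and 0.455 or less in the other 5 libraries, while Cd79b gave 77.9 and 70.1 in cultured MLN.

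Further genes that the rule named outside the 9 are Jchain and Vpreb3. Jchain, the joining chain of secreted antibody, had 4 and 12 counts in cultured MLN, 10 and 16 counts in thymus, and 27 and 43 counts in fresh MLN. Jchain was called lower in edgeR both in thymus (log2 fold change -1.45 ± 0.48, adjusted p 0.0252) and in cultured MLN (log2 fold change -1.98 ± 0.52, adjusted p 0.00365) than in fresh MLN. Vpreb3, a chaperone-like relative of Vpreb1, had 2 and 3 counts in cultured MLN, 3 and 5 counts in thymus, and 14 and 7 counts in fresh MLN. Jchain, Vpreb3, Igkc and Ighm thus all had their highest values in fresh MLN. Of the other B lineage genes, Bank1, Cr2 and Fcrl1, given below, were also highest there. Cd79b and the plasma cell genes Sdc1 and Derl3, given below, instead had their lowest values there. Tnfrsf17, the plasma cell receptor BCMA, and Vpreb2 had 0 counts in every library.

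Rag1 and Rag2, the recombinase genes that cut antigen receptor segments in both B and T cell precursors, had counts in thymus almost alone. Rag1 had 0 counts in both cultured libraries, 31 and 11 counts in thymus, and 0 and 1 counts in fresh MLN. Rag2 had 0 counts in both cultured libraries, 26 and 21 counts in thymus, and 0 and 1 counts in fresh MLN. Both were called higher in thymus than in fresh MLN, with adjusted p-values of 0.00142 and 3.11e-04 in edgeR. Both passed the filter on low counts through the thymus libraries alone, so these calls add little to the counts. Against the 1 count over fresh MLN, the ratio was 41.1 for Rag1 (95% counting interval 6.99 to 1663) and 46.0 for Rag2 (7.87 to 1856). Over 12 T cell markers the summed level was 206 to 215 CPM in cultured MLN, 1094 to 1161 CPM in thymus and 917 to 941 CPM in fresh MLN, and the part of T cell precursors in the Rag1 and Rag2 counts was not tested.

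Lists of genes of the same pathways were counted around the 9 genes. Of 14 mature B cell markers, 10 were tested. In thymus against fresh MLN, 3 were called higher and 4 lower, where 25.3% of all genes were higher and 22% lower (median -0.68, against 0.00 over all genes). In cultured against fresh MLN 4 were higher and 4 lower, where 39.4% and 38.1% of all genes were (median 0.49, against -0.01). In cultured MLN against thymus 5 were higher and 5 lower, where 34.8% and 37.8% of all genes were (median 0.06, against -0.06). The list therefore had no common direction. Its summed level was 135 to 137 CPM in cultured MLN, 91.1 to 94.7 CPM in thymus and 123 to 128 CPM in fresh MLN, most of it from genes that other leukocytes also express. Btk, a kinase of B cells and myeloid cells, had 45.7 CPM in cultured MLN, 8.72 CPM in thymus and 1.42 CPM in fresh MLN, and was called higher in thymus (log2 fold change 2.63 ± 0.18) and in cultured MLN (5.02 ± 0.17) than in fresh MLN. Cd22, an inhibitory receptor that binds sialic acid, had 7.44 CPM in cultured MLN, 0.327 CPM in thymus and 1.33 CPM in fresh MLN. Cd72, another inhibitory receptor, had 51.0 CPM in cultured MLN, 14.5 CPM in thymus and 53.5 CPM in fresh MLN, and Ralgps2, an exchange factor for small GTPases, had 27.8, 63.6 and 63.6 CPM in the same groups.

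Of 13 pro-B and pre-B genes, 10 were tested, and all 10 were called higher in thymus than in fresh MLN, where 25.3% of all genes were called higher (median 2.65, against 0.00). Rag1, Rag2, Dntt and Erg passed the filter on low counts through the thymus libraries alone. Their direction in comparisons with thymus was thus largely set by the filter, and these shares and medians overstate the difference. In cultured MLN against thymus 1 was higher and 8 were lower, where 34.8% and 37.8% of all genes were (median -2.59, against -0.06). In cultured against fresh MLN 3 were higher and 3 lower, where 39.4% and 38.1% of all genes were (median -0.91, against -0.01). Most of these genes are also known from early T cells. Sox4, a factor of progenitors, had 2.66 CPM in cultured MLN, 44.5 CPM in thymus and 8.51 CPM in fresh MLN. Cd24a, a surface protein of immature lymphocytes, had 132 CPM in cultured MLN, 83.1 CPM in thymus and 11.1 CPM in fresh MLN, and Tcf3, which encodes E proteins, had 92.8, 132 and 92.1 CPM in the same groups. The T cell markers given above were also at their highest summed level in thymus. Of these 12, 6 were called higher and 1 lower in thymus against fresh MLN, where 25.3% and 22% of all genes were.

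Of 10 plasma cell genes, 8 were tested. In cultured against fresh MLN, 6 were called higher and 1 lower, where 39.4% of all genes were higher and 38.1% lower (median 2.33, against -0.01). In cultured MLN against thymus 6 were higher and 1 lower, where 34.8% and 37.8% of all genes were (median 1.70, against -0.06), and in thymus against fresh MLN 6 were higher and 2 lower, where 25.3% and 22% were (median 1.05, against 0.00). Irf4, a factor of plasma cells and of activated lymphocytes, had 157 CPM in cultured MLN, 3.52 CPM in thymus and 0.653 CPM in fresh MLN. Xbp1, a factor of the unfolded protein response, had 376 CPM in cultured MLN, 96.6 CPM in thymus and 77.3 CPM in fresh MLN. Creld2, an endoplasmic reticulum protein, had 174, 39.2 and 33.4 CPM in the same groups. Prdm1, the repressor Blimp-1, had 122 CPM in cultured MLN, 24.6 CPM in thymus and 65.6 CPM in fresh MLN. Sdc1, the plasma cell surface proteoglycan CD138, had 6.23 CPM in cultured MLN, 2.27 CPM in thymus and 0.209 CPM in fresh MLN, and Derl3, of endoplasmic reticulum quality control, had 1.43, 0.586 and 0.170 CPM. Jchain was lower in cultured than in fresh MLN, as given above. Mzb1, a chaperone of antibody assembly, had 9 counts over cultured MLN, 3 over thymus and 5 over fresh MLN and was too low for the test.

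Of 20 genes of B cell receptor signalling, all were tested. They were 8 higher and 6 lower in thymus against fresh MLN (median -0.02), 9 higher and 5 lower in cultured against fresh MLN (median 0.21) and 10 higher and 6 lower in cultured MLN against thymus (median 0.26). Over all genes 47.3%, 77.6% and 72.7% were called in these comparisons. The list was above that share in thymus against fresh MLN. It was slightly below it between cultured and fresh MLN and slightly above it in cultured MLN against thymus. These gaps were not tested. Pik3ap1, an adaptor for phosphoinositide 3-kinase, had 237 CPM in cultured MLN, 30.1 CPM in thymus and 73.5 CPM in fresh MLN. The kinase subunit Pik3cd had 695, 555 and 579 CPM and the lipid phosphatase Inpp5d 547, 439 and 544 CPM in the same groups. Of 17 B lineage transcription factors, 9 were higher and 6 lower in thymus against fresh MLN (median 0.24), 6 higher and 8 lower in cultured against fresh MLN (median -0.37), and 5 higher and 10 lower in cultured MLN against thymus (median -0.51), beside the same shares over all genes. Bcl11a, a factor of early B cells and plasmacytoid dendritic cells, had 0 counts in both cultured libraries, 6.63 and 4.63 CPM in thymus, and 0.283 and 0.106 CPM in fresh MLN. The most abundant factors, Ets1 and Ikzf1, are used throughout the lymphoid lineages and lay at 409 CPM or above in every library. Tcf3, Irf4 and some other genes stand in 2 of these lists, and all lists were chosen with earlier results of these data known.

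The other lists give the setting of these counts. Over all tested genes, 25.3% were higher and 22% lower in thymus against fresh MLN, 39.4% higher and 38.1% lower in cultured against fresh MLN, and 34.8% higher and 37.8% lower in cultured MLN against thymus. Of the immunoglobulin constant genes at hand, Ighm and Igkc were tested, and both were lower in thymus and in cultured MLN than in fresh MLN (medians -2.41 and -4.12); without fresh MLN replicate 2 only 1 was called in thymus against fresh MLN. Of 10 tested macrophage and monocyte markers, 6 were lower and 0 higher in thymus against fresh MLN, where leaving out thymus replicate 1 or fresh MLN replicate 2 left 3, and 8 were lower and 2 higher in cultured MLN against each of the other groups. Of 7 tested plasmacytoid dendritic cell markers, 3 were higher and 3 lower in thymus against fresh MLN, 3 higher and 2 lower in cultured against fresh MLN, and 1 higher and 3 lower in cultured MLN against thymus. Of 12 T cell markers, 6 were higher and 1 lower in thymus against fresh MLN, 1 higher and 8 lower in cultured against fresh MLN, and 0 higher and 10 lower in cultured MLN against thymus. Of 3 tested E protein inhibitors, the Id genes, 1 was higher and 1 lower in thymus against fresh MLN, and 2 were higher and 1, Id1, lower in cultured MLN against each of the other groups. Of 10 ILC2 and sort markers, all of which were tested, 1 was higher and 5 lower in thymus against fresh MLN, 5 higher and 5 lower in cultured against fresh MLN, and 5 higher and 4 lower in cultured MLN against thymus.

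**Figure D4:**
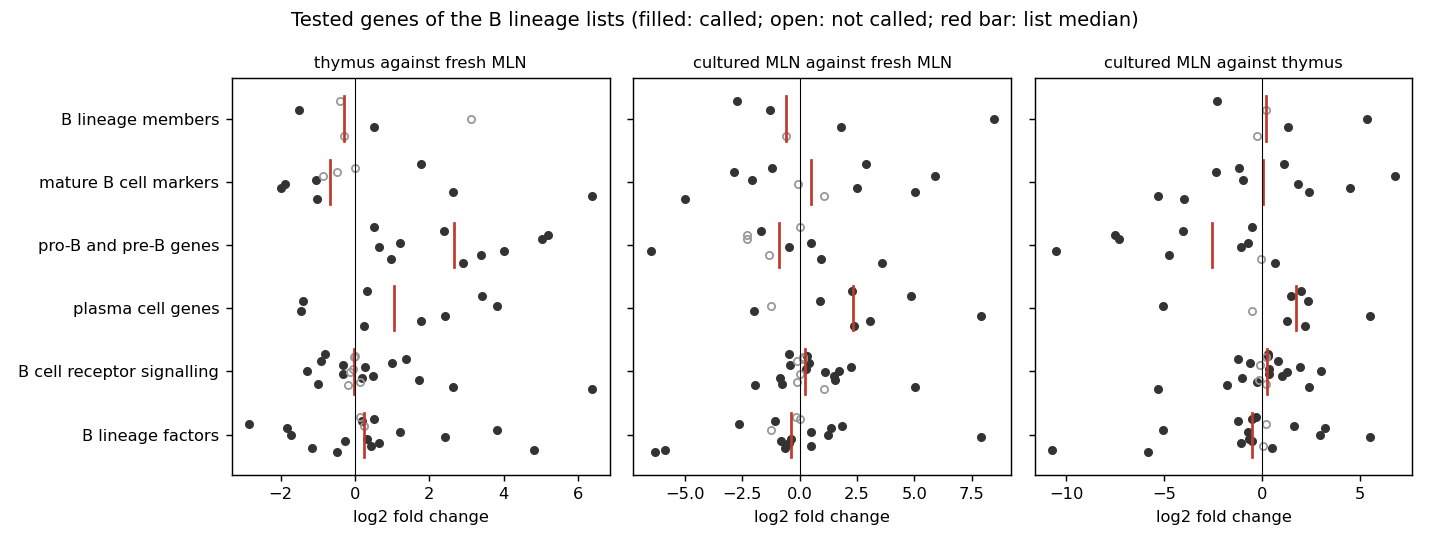
Log2 fold changes of the tested genes of 6 lists in the 3 comparisons, with filled points for called genes, open points for genes not called, a red bar for each list's median and a vertical line at 0. All 10 tested pro-B and pre-B genes lay right of 0 in thymus against fresh MLN, and the mature B cell markers lay on both sides in each comparison. Some of the 10, such as Rag1 and Rag2, passed the filter on low counts through thymus alone. The fitted values of genes with a group at 0 counts, such as Ebf1, depend on the prior count.

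Over the 6 libraries, the genes whose profile was closest to that of Ighm were Tle2, Gm10505 and Igtp, with root mean square differences of centred log2(CPM + 0.5) of 0.0960, 0.0998 and 0.120 among 11120 candidates. Tle2, a corepressor, had 6.14 CPM in cultured MLN, 5.88 CPM in thymus and 16.7 CPM in fresh MLN, and Igtp, an interferon-induced GTPase, had 138 CPM in cultured MLN, 109 CPM in thymus and 343 CPM in fresh MLN. The genes closest to Cd79b were Nicn1, Higd1a and Socs2, with differences of 0.0978, 0.120 and 0.132. Socs2, a feedback inhibitor of cytokine receptors, had 111 CPM in cultured MLN, 44.5 CPM in thymus and 31.8 CPM in fresh MLN. Only genes with at least 5 CPM in their highest group were candidates. Cd79a and Igkc lay below that limit and could not enter either set, so their absence carries no information.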

How the data were processed

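Messenger RNA was sequenced in 6 libraries, 2 for each of cultured MLN, thymus and fresh MLN. The deposited files give raw counts of reads for each of 37991 Ensembl genes per library, made by the authors with no normalization; 0 rows named anything other than a gene. Per the submitters' processing notes, HTSeq 0.5.3p9 and the builds mm9 and NCBIM37 were used. Which aligner, annotation release, counting mode and strand option were chosen is not given in the sources used here. Symbols (32919 identifiers matched), biotypes, exon lengths and overlaps came from GENCODE M21 by Ensembl identifier. Its build is later than that of the files, and the exon lengths, overlaps and neighbouring genes rest on its coordinates. Promoter windows came from the RefSeq table of GRCm38.p6.

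Counts were fitted in R 4.3.3 with edgeR 4.0.16: TMM factors, filterByExpr, all 6 libraries with 1 mean per group and no block, quasi-likelihood F test, two-sided, Benjamini-Hochberg adjustment over the 16231 genes tested of the 23871 with a count. The SE of a log2 fold change is its size over the square root of F. There were 3 residual degrees of freedom. An exact permutation test of a single value over 2 against 2 libraries cannot go below p = 0.333 and was not run. Ratios and intervals of counts are exact 95% intervals (binomial or Poisson). The script was tested on simulated data. The alternatives tried were scaling by library totals alone, by upper quartile or by RLE, a stricter filter (5 CPM or more in 2 libraries) or none, DESeq2 1.42.0, the replicate number as a block, only the groups compared, each library left out, and the V segment sum without its most abundant member.

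The 9 genes, the 12 lists and the tests were chosen with earlier results of these data known. Named genes are the 9, the 2 most abundant members of each list, its most changed called member of 5 CPM or more per comparison, the 3 genes closest in profile to each member above 5 CPM, the 3 V segments with most counts, and Igkc, Ighd, Jchain, Rag1, Rag2, Vpreb3 and Id1; others were named after their values were seen. A further gene that the rule named is not reported here.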

Additional observations from a re-analysis of the deposited data

How the results depend on the processing

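The calls of Ighm, Cd79b, Ebf1 and Vpreb1 in cultured against fresh MLN, of Cd79b and Ebf1 in cultured MLN against thymus, and of Ighm in thymus against fresh MLN held in every alternative that could test the gene. The number of B lineage genes called lay between 1 and 2 in thymus against fresh MLN, at 4 in cultured against fresh MLN and between 2 and 4 in cultured MLN against thymus when 1 library was left out. With the filter of at least 5 CPM, only Ighm and Cd79b could be tested, and 2 were called in cultured against fresh MLN and 1 in cultured MLN against thymus. With the replicate number as a block, 2, 4 and 3 of the genes were called, as without it; the labels do not say that the numbers pair libraries, and the differences between replicates correlated by 0.115, 0.0211 and 0.0339 between groups. Ighm in cultured MLN against thymus was -0.045 with library totals alone (adjusted p 0.717 in edgeR). In thymus against fresh MLN with 1 library left out, Vpreb1 lay between -0.85 and 0.22, the highest without fresh MLN replicate 1 (adjusted p 0.840 in edgeR), and Ebf1 between 0.0 and 3.98, the lowest without thymus replicate 1, which held its only counts there; these log2 fold changes were not called. Without Ighv6-3, the V segment with most counts, the sum for every 100 Ighm counts was 0.493 in thymus and 0.396 in fresh MLN. In single libraries that sum was 0.0384 to 0.299 in cultured MLN, 1.09 to 1.15 in thymus and 0.824 to 0.866 in fresh MLN, and light chain constant counts were 0.0384 to 0.0499 in cultured MLN, 0.354 to 0.455 in thymus and 0.326 to 2.71 in fresh MLN. The cause of these shifts was not tested, except that fewer genes passed the stricter filter. Counts of Ms4a1 and Igll1 are too few to show differences at this depth, and those of Blnk and Pax5 give only the bounds and intervals stated with them.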

Other observations

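Beside Cd79b on the chromosome stands Scn4a, a voltage-gated sodium channel gene of muscle, named after its values were seen. Scn4a had 13.0 CPM in cultured MLN, 0.378 CPM in thymus and 0.145 CPM in fresh MLN (means of 2 libraries). It was called higher in cultured than in fresh MLN (log2 fold change 6.47 ± 0.37) and higher in cultured MLN than in thymus (5.12 ± 0.32) with edgeR, the same comparisons in which Cd79b was higher in culture. The neighbour on the other side, Gh, had 6 counts over cultured MLN, 18 over thymus and 24 over fresh MLN and was called lower in cultured than in fresh MLN with edgeR. Pax5 stands beside Melk, a kinase of dividing cells, which had 18.6 CPM in cultured MLN, 14.9 CPM in thymus and 1.09 CPM in fresh MLN, and beside Zcchc7, which had 84.9 CPM in cultured MLN, 124 CPM in thymus and 166 CPM in fresh MLN. Fcmr, the receptor for the constant part of IgM, also chosen after its values were seen, had 123 counts over both cultured libraries, 1 over thymus and 2 over fresh MLN, and was called higher in culture in both comparisons with edgeR. Blk, a kinase of B cells and early T cells, had 4 counts over cultured MLN, 193 over thymus and 2 over fresh MLN.

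MHC class II genes, which B cells and dendritic cells display, differed in their direction from gene to gene. In cultured MLN against thymus 5 of 10 were called higher and 4 lower, where 34.8% of all tested genes were higher and 37.8% lower. In thymus against fresh MLN 2 were higher and 8 lower (25.3% and 22% of all genes), and in cultured against fresh MLN 3 were higher and 6 lower (39.4% and 38.1% of all genes). H2-Ab1 had 60.8 CPM in cultured MLN, 5.21 CPM in thymus and 8.97 CPM in fresh MLN, and H2-DMb1 had 9.41, 1.25 and 0.311 CPM. Others were highest in fresh MLN: H2-Aa had 1.09, 2.19 and 13.0 CPM and H2-Eb1 0.997, 1.66 and 10.2 CPM in the same groups.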
